A study of Mus musculus with 12 samples.

Results

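The genes described here encode mouse proteins that bind N6-methyladenosine (m6A) in RNA, the m6A readers. They were chosen by name, not by a rule on measured values, though earlier results of these data were known. They are Ythdf1, Ythdf2, Ythdf3, Ythdc1, Ythdc2, Igf2bp1, Igf2bp2, Igf2bp3, Prrc2a and Fmr1. All 10 carried at least 1 m6A peak, among 13197 protein-coding genes with a peak in the series. Together they held 145 of the 118075 peaks listed.

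The data were m6A peak lists of 3 libraries from spermatogonial stem cells (SSCs) and 3 from induced neural stem cells (iNSCs). SSCs maintain sperm production in the testis, the tissue the labels give for all samples, and were grown on a layer of inactivated STO fibroblasts. The iNSCs were made from SSCs by 1 µM retinoic acid for 24 h and then a neural medium with basic FGF and 10 µM SB431542, which blocks TGF-β receptor kinases, on laminin. The series title names YTHDF1 and the fate change of these cells, so the peaks on the readers' own transcripts were set side by side in the starting and the derived cells. In the labels the field for cell type holds, for every sample, the other cell type. Groups were taken from the titles, with which the source names go. Replicates are numbered in the labels without a statement that they came from separate cultures, so a p-value here covers the spread among libraries, possibly technical, and no more. In bulk samples a peak requires both a transcript and its methylation, and fewer cells of a type, less RNA per cell and less methylation cannot be told apart here. The 6 input libraries were not analysed here, and the lists hold no read counts, so the depth is unknown.

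m6A is placed on adenosines of nascent mRNA by a methyltransferase complex around METTL3 and METTL14, and can be removed by demethylases. Proteins with a YTH domain hold the methylated base in a pocket: the YTHDF proteins act in the cytoplasm on translation and decay of the mRNA, YTHDC1 acts in the nucleus on splicing and export, and YTHDC2 is a helicase that germ cells need to enter and keep to meiosis. The IGF2BP proteins bind through KH domains and are known to stabilise their target mRNAs, PRRC2A has been described as a reader in neural cells, and FMRP, the product of Fmr1 that is lost in fragile X syndrome, binds many methylated mRNAs in the brain. The mRNAs of these readers can themselves be methylated, and that is what the peaks below record.

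The lists of the SSC libraries were longer, with 19728 to 27597 peaks, than those of the iNSC libraries, with 13913 to 16060. Peaks were wider in iNSCs, where the median width of a list was 391.5 ± 33.9 bases against 197 ± 6.43 bases in SSCs (SD, n = 3). The score the authors gave each peak reached a cap, counted as at least 3100, for 16.2% ± 1.37 of iNSC peaks and 5.25% ± 2.03 of SSC peaks. Of the germ cell markers, 9, 7 and 8 of 10 such genes were peaked in SSC lists against 1, 1 and 2 in iNSC lists, and Tex14, Ddx4, Zbtb16 and Stra8 had peaks in every SSC list and none in iNSCs. Etv5, in the same list, had 1, 0 and 2 peaks in SSCs and 2, 3 and 2 in iNSCs, and Gfra1 had 0, 0 and 0 in SSCs and 0, 0 and 1 in iNSCs. Of 10 neural stem cell markers, 6, 5 and 5 had a peak in SSCs and 2, 2 and 2 in iNSCs. Pax6, a transcription factor of neural progenitors, had no peak in SSCs and 3, 4 and 4 peaks in iNSCs, whereas Sox2, Vim, Msi1 and Cdh2 had peaks in the SSC lists alone. Of 10 markers of fibroblasts and feeder cells, 6, 4 and 9 had a peak in SSCs and 5, 4 and 5 in iNSCs, and Col3a1, a fibrillar collagen, had 2, 2 and 2 against 1, 0 and 0 peaks. The part of feeder RNA in any value below was not tested.

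Reader genes with a peak numbered 9, 9 and 7 in SSC libraries 1 to 3 (8.33 ± 1.15) and 7, 8 and 7 in iNSC libraries 1 to 3 (7.33 ± 0.577; SD, n = 3). Over all protein-coding genes the share with a peak was 42.6% ± 4.64 in SSCs and 31.1% ± 1.31 in iNSCs, so the difference of 1 reader gene went the way of the whole lists, and its groups overlapped. With the better-scoring 50% of each list it turned, to 6.33 reader genes in SSCs and 6.67 in iNSCs. Ythdf1, Ythdf2, Ythdc1, Igf2bp2 and Fmr1 had a peak in all 6 lists, as did 30.1% of all genes with a peak.

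The readers held 33, 26 and 23 peaks in SSC libraries and 19, 24 and 20 in iNSC libraries. These peaks covered 13467, 10194 and 7938 bases in SSCs and 15117, 14792 and 14951 bases in iNSCs. The order of the groups therefore turned with the measure: the ranges of peak numbers overlapped, and more bases were covered in every iNSC library than in every SSC library. Reader peaks had a median width of 165 ± 10.1 bases in SSCs and 376 ± 68.5 bases in iNSCs, close to the lists' own widths.

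Igf2bp1 alone was SSC-only, meaning a peak in all 3 SSC lists and in no iNSC list, a call that 11.3% of genes with a peak received. Prrc2a alone was iNSC-only, the reverse call, which 2.17% of genes received. Igf2bp1, Igf2bp2 and Fmr1 had more peaks in every SSC list than in any iNSC list, beside 16.5% of all genes. Ythdf1 and Prrc2a had more in every iNSC list, beside 4.22% of all genes. The median difference in peak number, iNSC minus SSC, was -0.833 for the 10 readers and -0.333 for all genes. With 3 libraries against 3 the exact two-sided permutation test cannot go below p = 0.1, and no gene of the 13197 had an adjusted p (Benjamini-Hochberg) under 0.05 for peak number or covered bases. At an unadjusted p under 0.05 the count was also 0, since 0.1 is the floor. The separations below are therefore descriptions of these 6 libraries.

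**Figure D1:**
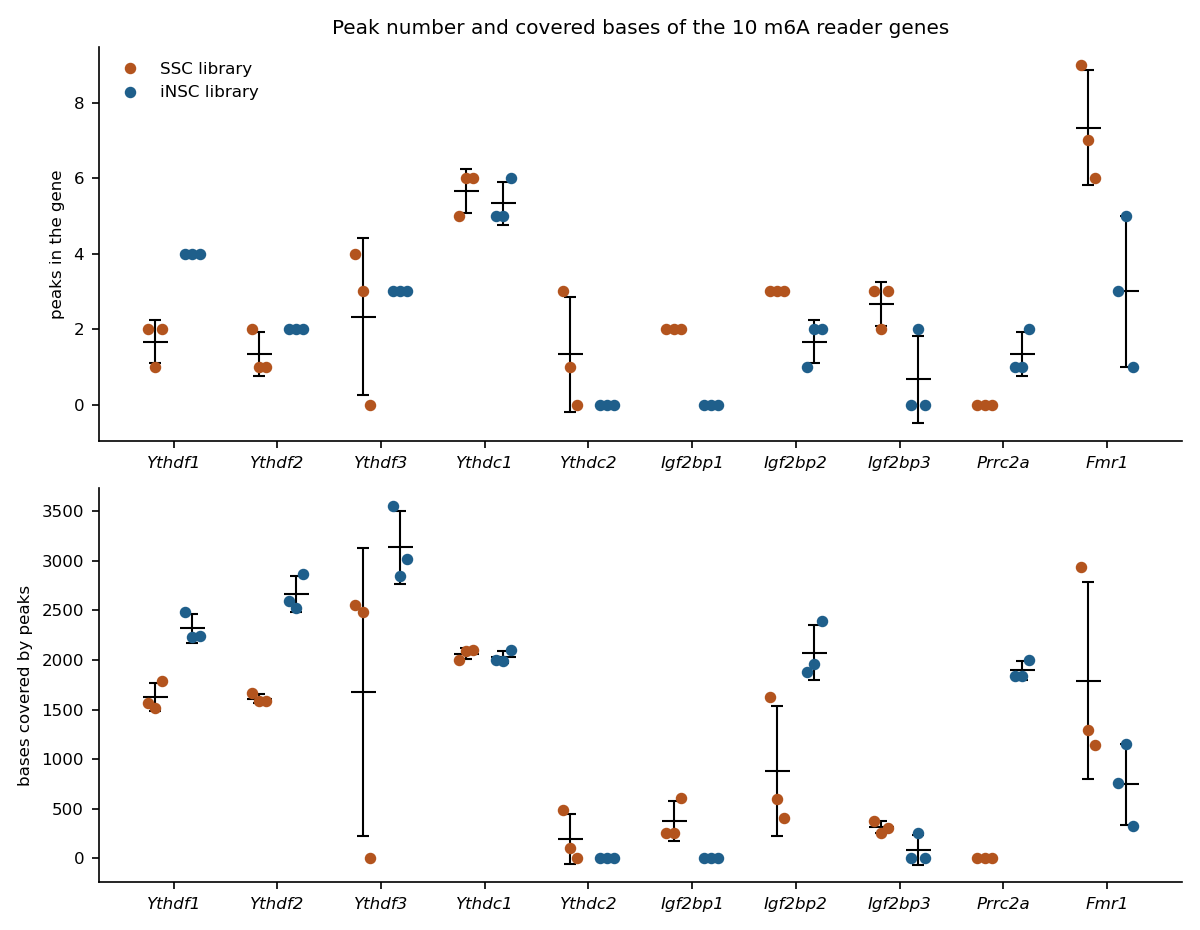
Peaks per gene (upper panel) and bases covered by peaks per gene (lower panel) for the 10 reader genes; points are libraries, horizontal lines the group means and bars ± 1 SD of 3 libraries. Ythdf1 sits at 4 peaks in all iNSC libraries, Ythdc1 at 5 or 6 in all 6 libraries, and Fmr1 between 6 and 9 in SSCs and between 1 and 5 in iNSCs.

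Covered bases did not depend on how a stretch was split into entries, and placed more readers on the iNSC side. Ythdf1, Ythdf2, Ythdf3, Igf2bp2 and Prrc2a had more covered bases in every iNSC list than in any SSC list, beside 17.5% of all genes. Igf2bp1 and Igf2bp3 had more in every SSC list, beside 15.6% of all genes. The median difference, iNSC minus SSC, was 330.5 bases for the readers and -54.7 bases for all genes. Of the 5 readers on the iNSC side, 3 are the YTHDF paralogs, the cytoplasmic readers.

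Peaks at a gene's start show how exactly peak edges recurred. Of the 145 reader peaks, 24 had their 5′ edge before the end of the gene's first 500 bases. The windows printed next span 30 bases before the RefSeq start and the first 30 transcribed bases (RefSeq, GRCm38.p6), read 5′ to 3′ on the gene's strand, with bases inside a peak of any library in capitals. They are the windows of the 5 readers whose start lay in a peak in at least 1 list and for which the promoter table had an entry, at chr2:180920907-180920966 (minus strand), chr5:86804236-86804295 (plus), chr16:22163270-22163329 (minus), chr17:35164848-35164907 (minus) and chrX:68678511-68678570 (plus), in the order of the lines.
Ythdf1: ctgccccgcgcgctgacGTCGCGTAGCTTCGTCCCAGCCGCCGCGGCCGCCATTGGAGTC
Ythdc1: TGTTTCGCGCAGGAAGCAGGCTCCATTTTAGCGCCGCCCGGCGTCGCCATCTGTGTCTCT
Igf2bp2: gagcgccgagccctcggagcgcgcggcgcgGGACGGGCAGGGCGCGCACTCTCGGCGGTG
Prrc2a: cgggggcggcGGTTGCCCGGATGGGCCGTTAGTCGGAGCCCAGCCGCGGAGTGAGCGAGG
Fmr1: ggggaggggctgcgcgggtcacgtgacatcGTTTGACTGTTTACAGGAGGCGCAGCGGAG

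In Igf2bp2 and Fmr1 the capitals began at the first transcribed base, so the peak's edge was the base of the RefSeq start used here. For Fmr1 the gene span of the RefSeq table begins 5 bases earlier, and a second RefSeq start lies 41 bases inside the peak, in a window that all 6 lists covered. The edge lay 13 bases before the RefSeq start in Ythdf1, 20 before it in Prrc2a and 45 before the start used here in Ythdc1, whose whole window was inside a peak. The Ythdc1 window was covered in all 6 lists, that of Fmr1 in 3 SSC and 2 iNSC lists, and that of Ythdf1 in 1 SSC and 3 iNSC lists. Those of Igf2bp2 and Prrc2a were covered in iNSC library 3 alone. In Igf2bp2, SSC library 2 had a peak of 472 bases that overlapped the iNSC peak but began 42 bases into the gene, past the window. As a description of letters, GGAC, a common form of the sequence around m6A, stood in the first 50 transcribed bases of Igf2bp2 and Igf2bp3 and not in those of Ythdf1, Ythdf2, Ythdc1, Prrc2a or Fmr1. On the same strand 18.9% of 32851 RefSeq promoter entries held it there. In the full 300-base entries 65.6% held it on the gene's strand and 66.1% on the other strand.

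Ythdf1, the reader named in the series title, carried more m6A peaks in iNSCs. It spans chr2:180904377-180920936 on the minus strand, 16560 bases. It had 2, 1 and 2 peaks in SSC libraries and 4, 4 and 4 in iNSC libraries, so that the groups did not overlap (1.67 ± 0.577 against 4 ± 0 peaks; SD, n = 3; exact permutation p = 0.1, adjusted p = 0.483). Its peaks covered 1571, 1521 and 1787 bases in SSCs and 2488, 2231 and 2245 bases in iNSCs, 1.43-fold more on the means (exact permutation p = 0.1, adjusted p = 0.302, n = 3). This is a covered share of 9.18% to 10.8% of the gene in SSCs and 13.5% to 15.0% in iNSCs.

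The Ythdf1 peaks fell into 4 regions, a region being peaks of any list that overlap by at least 1 base on a strand. The widest, chr2:180910687-180912207, had the same 1521 bases in all 6 lists and scored 553, 908 and 330 in SSCs, while in the 3 iNSC lists it was at the cap. Scores were ranked within each list, so that a percentile of 90 means a score above 90% of that list's peaks, with tied peaks at their middle rank. The region stood at percentiles 81.0, 79.5 and 68.5 in SSCs and 92.3, 90.9 and 91.8 in iNSCs, without overlap (76.3 ± 6.80 against 91.7 ± 0.704; exact permutation p = 0.1, adjusted p = 0.199, n = 3). Because more peaks are capped in iNSC lists, a capped peak there has a percentile of 90.9 to 92.3 and in SSC lists one of 96.1 to 98.1. The part of the cap in the Ythdf1 difference was not tested.

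Near its 3′ end Ythdf1 had a region, chr2:180905048-180905668, that was iNSC-only, with widths of 621, 364 and 378 bases and percentiles of 33.1, 34.4 and 8.32. It ended 671 bases before the gene's end. The region over the start, 266 bases, was in SSC library 3 and all iNSC lists, at percentile 34.6 and at 47.4, 15.0 and 65.8. A further region of 80 bases, 1722 bases into the gene, was in SSC library 1 and all iNSC lists. In 3 of the 4 Ythdf1 regions the scores were thus low to middle, and among the better-scoring 50% of peaks the gene had 1, 1 and 1 peaks against 1, 1 and 2, which overlap. At equal list length it had 1, 1 and 1 against 4, 3 and 3, which do not.

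Ythdf2, whose protein recruits deadenylases to methylated mRNA, differed in the width of coverage more than in peak number. It lies at chr4:132184916-132212256 on the minus strand and had 2, 1 and 1 peaks in SSCs and 2, 2 and 2 in iNSCs, which overlap (exact permutation p = 0.4, n = 3). Its peaks covered 1664, 1584 and 1584 bases in SSCs and 2598, 2525 and 2867 bases in iNSCs, 1.65-fold more with no overlap (1611 ± 46.2 against 2663 ± 180; exact permutation p = 0.1, adjusted p = 0.302, n = 3). A region of exactly 1584 bases, chr4:132204132-132205715, was in all 6 lists. The rest of the difference was an iNSC-only region, chr4:132185665-132186947, of 1014, 941 and 1283 bases, at percentiles 59.3, 60.9 and 16.8 and ending 749 bases before the gene's end. Without the poorer-scoring peaks, iNSC library 3 lost that region and the covered bases, 1584 in each SSC list and 2598, 2525 and 1584 in iNSCs, no longer separated the groups.

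Ythdf3, which acts with the other YTHDF proteins in the cytoplasm, lies at chr3:16183148-16217037, on the plus strand as read from its peaks. It had 4, 3 and 0 peaks in SSCs and 3, 3 and 3 in iNSCs. SSC library 3 held none at all, so the covered bases, 2552, 2481 and 0 in SSCs and 3550, 2847 and 3015 in iNSCs, rest in part on that library. The difference of the means was 1460 bases with it and 621 bases without it, with an exact permutation p of 0.1 (n = 3) and of 0.2 (SSC n = 2). The ranges did not overlap in either case. A region of 1599 bases, chr3:16203826-16205424, was in the other 5 lists with identical edges, at scores of 1110 and 1867 in SSCs and at the cap in iNSCs. Toward the 3′ end the region chr3:16213955-16215567 was 517 and 544 bases wide in SSCs and 1613, 1162 and 1078 bases wide in iNSCs, with the same 5′ edge in all 5 lists.

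The 3 YTHDF genes thus shared a layout. Each had a peak of 1521 to 1599 bases away from both gene ends, with the same edges wherever it was listed. Its centre lay at 57.3% of the span in Ythdf1, 26.8% in Ythdf2 and 63.4% in Ythdf3. Each also had a second region toward the 3′ end that was absent or narrower in SSCs. These paralogs are known for holding most of their coding sequence in a long exon. Which exons the peaks cover was not analysed here, because exon models were not used. Wide peaks were more frequent in iNSCs in general: 13.8% to 16.5% of iNSC peaks and 4.49% to 5.77% of SSC peaks spanned at least 1500 bases, and the readers held 6, 5 and 5 such peaks in iNSCs and 3, 3 and 2 in SSCs.

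**Figure D2:**
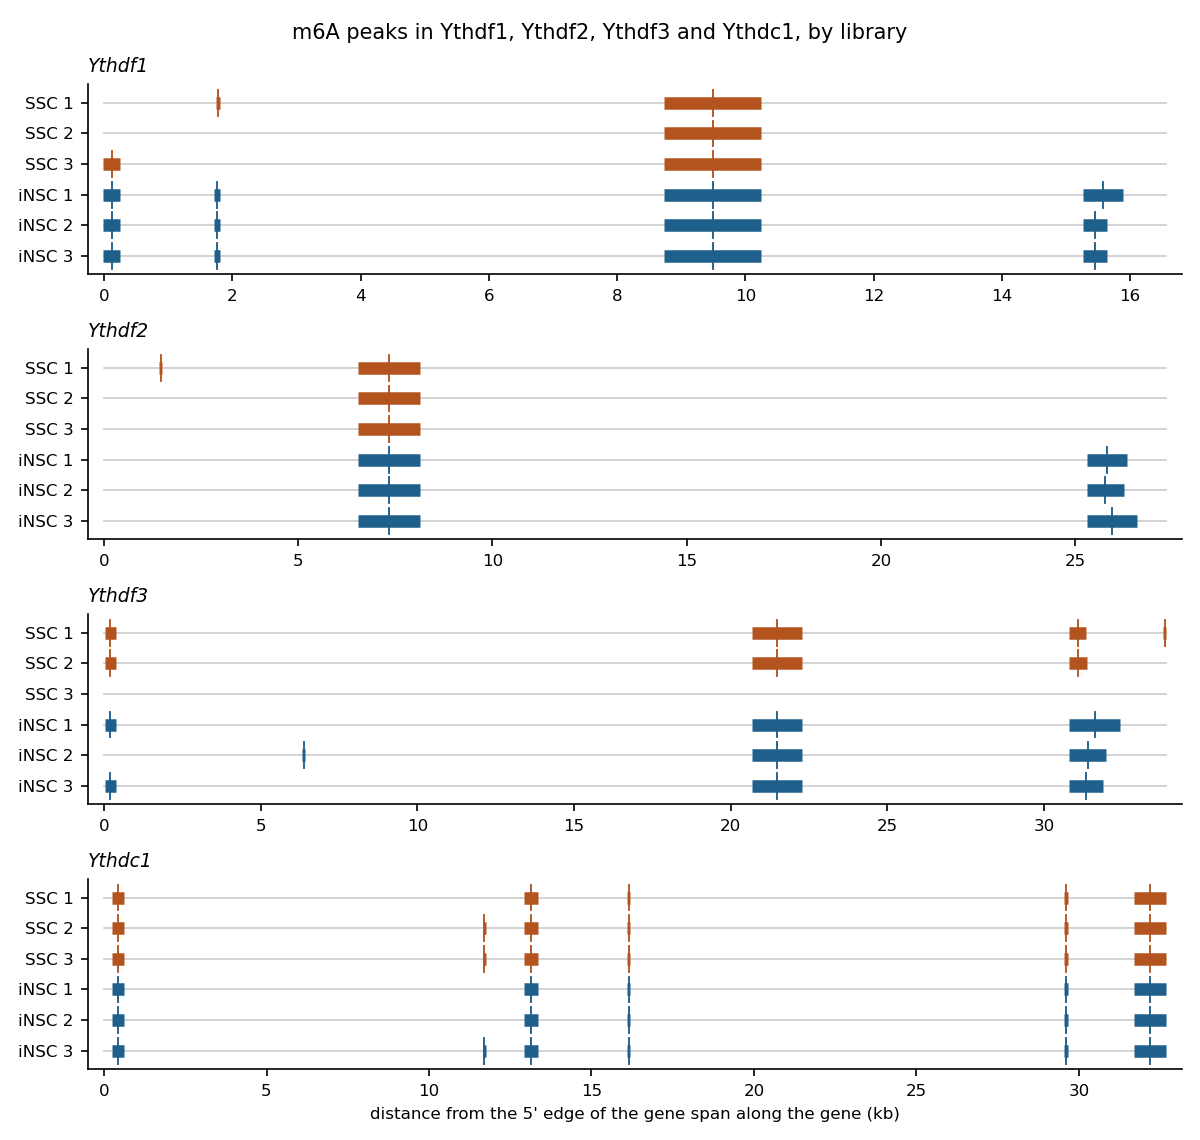
Positions of m6A peaks along Ythdf1, Ythdf2, Ythdf3 and Ythdc1, in kb from the 5′ edge of the gene span; each row is a library, bars are peaks to scale and thin vertical lines mark peak centres. The right-hand peaks of Ythdf1 and Ythdf2 appear in the 3 iNSC rows and in no SSC row, whereas the Ythdc1 rows are nearly alike.

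Ythdc1, the nuclear reader, was marked alike in both groups. It lies at chr5:86803980-86836659 on the plus strand and had 5, 6 and 6 peaks in SSCs and 5, 5 and 6 in iNSCs. These covered 1999, 2088 and 2101 bases in SSCs and 1999, 1986 and 2101 bases in iNSCs, a difference of -34.0 bases on means of 2063 ± 55.5 and 2029 ± 63.0 (SD, n = 3; exact permutation p = 0.8). The groups overlapped on both measures, and only 1 of its 6 regions, of 102 bases, was missing from any list. It also stood high among peaked genes: in every list at least 84.7% of them, and in iNSC library 3 93.9%, had fewer peaks.

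The other 5 Ythdc1 regions were in all 6 lists, and 4 of those had the same edges in each. Regions of 371 bases at the start, 427 and 135 bases inside the gene and 963 or 976 bases at its 3′ end were at the cap in every list, except that the first scored 2755 in SSC library 1. The region of 90 bases, chr5:86820086-86820175, was below the cap, at percentiles 81.0, 90.9 and 67.7 in SSCs and 69.2, 61.5 and 69.0 in iNSCs, which overlap. The best percentile of the gene, 98.1, 96.1 and 97.6 against 92.3, 90.9 and 91.8, did not overlap. Each of these 6 values is that of a capped score in its list, so their order was fixed by the share of capped peaks per list. With that limit, among the 5 readers with a peak in all lists, Ythdc1 and Fmr1 had a higher best percentile in every SSC list. The same call was received by 31.4% of the 3967 genes with a peak in all lists. The reverse held for Ythdf1 alone, beside 18.9%.

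Ythdc2, the meiotic helicase, had weak peaks in SSCs and none in iNSCs. It lies at chr18:44827730-44889720, on the plus strand as read from its peaks, and had 3, 1 and 0 peaks in SSC libraries and 0, 0 and 0 in iNSC libraries, which overlap at 0 (exact permutation p = 0.4, n = 3). Its 3 regions were 108 to 197 bases wide and lay between percentiles 18.9 and 41.5 of their lists. None of them was in the better-scoring 50% of any list, and without SSC library 3 the gene would be called SSC-only. Meioc and Rbm46, germ cell partners of YTHDC2, were SSC-only, with 4, 3 and 3 peaks and with 6, 3 and 3 peaks.

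Igf2bp1 carried peaks in SSCs alone. It lies at chr11:95957163-96005944, on the minus strand as read from its peaks, and had 2, 2 and 2 peaks in SSC libraries and 0, 0 and 0 in iNSC libraries (exact permutation p = 0.1, adjusted p = 0.483, n = 3). They covered 259, 259 and 609 bases, at most 1.25% of the gene. The region chr11:95970669-95970791, 123 bases, was in all SSC lists at percentiles 51.3, 65.9 and 0.725, and that of 136 bases next to it, chr11:95969849-95969984, was in SSC libraries 1 and 2 at 83.5 and 75.4. SSC library 3 had instead a peak of 486 bases at the gene's start, at percentile 27.3. Its peaks there were so low in rank that with lists of equal length, or with the better-scoring 50% of each, Igf2bp1 had 2, 2 and 0 peaks in SSCs and lost the call.

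Igf2bp3 resembled Igf2bp1 in the pattern of its peaks. It lies at chr6:49085218-49215469 on the minus strand and had 3, 2 and 3 peaks in SSCs and 0, 2 and 0 in iNSCs, which overlap (exact permutation p = 0.2, n = 3). They covered 376, 259 and 307 bases in SSCs and 0, 258 and 0 bases in iNSCs, separated by a base in the closest lists. The region chr6:49105570-49105705 of 136 bases was SSC-only, at percentiles 60.6, 34.4 and 40.2. The iNSC library 2 peaks were at percentiles 2.59 and 5.51 and fell away at equal list length, where Igf2bp3 kept 2, 2 and 2 peaks in SSCs and 0 in iNSCs, the SSC-only call that Igf2bp1 lost. All 10 Igf2bp3 peaks lay inside the overlapping span of Malsu1, whose strand is not given in the tables used here, and on the strand of Igf2bp3.

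Some exact peak widths recurred between readers, among them those of Igf2bp1 and Igf2bp3. A width of 123 bases occurred in Igf2bp1 in 3 lists, in Igf2bp3 in 3 lists and in Igf2bp2 in 1 list, and a width of 136 bases in Igf2bp1 in 2 lists and in Igf2bp3 in 3. In both Igf2bp1 and Igf2bp3 the 123-base region came first and the 136-base region next in the direction of transcription. Other pairs shared a width too: 80 bases in Ythdf1 and Ythdf2, 135 in Ythdc1 and Igf2bp3, and 364 in Ythdf1 and Fmr1.

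Igf2bp2 had more peaks in SSCs and more covered bases in iNSCs. It lies at chr16:22059009-22163299 on the minus strand and had 3, 3 and 3 peaks in SSCs and 1, 2 and 2 in iNSCs (3 ± 0 against 1.67 ± 0.577; SD, n = 3; exact permutation p = 0.1, adjusted p = 0.483). Its peaks covered 1626, 599 and 404 bases in SSCs and 1877, 1955 and 2391 bases in iNSCs, 2.37-fold more (876 ± 657 against 2074 ± 277; exact permutation p = 0.1, adjusted p = 0.302, n = 3). Without SSC library 1 the SSC mean was 501.5 bases. Neither measure overlapped between the groups, and they pointed in opposite directions.

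The covered bases came from the last 1877 bases of Igf2bp2, chr16:22059009-22060885, listed whole in every iNSC library at percentiles 49.8, 63.0 and 14.7. In SSCs that stretch was listed in library 1 alone, as 1428 bases at percentile 91.0. The peak number came from short peaks scattered over the gene, of which 5 of 8 regions were each in a single SSC list, and at equal list length the numbers were 2, 2 and 0 against 1, 2 and 2, so that the direction turned. Among the better-scoring 50% of peaks neither measure separated the groups.

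**Figure D3:**
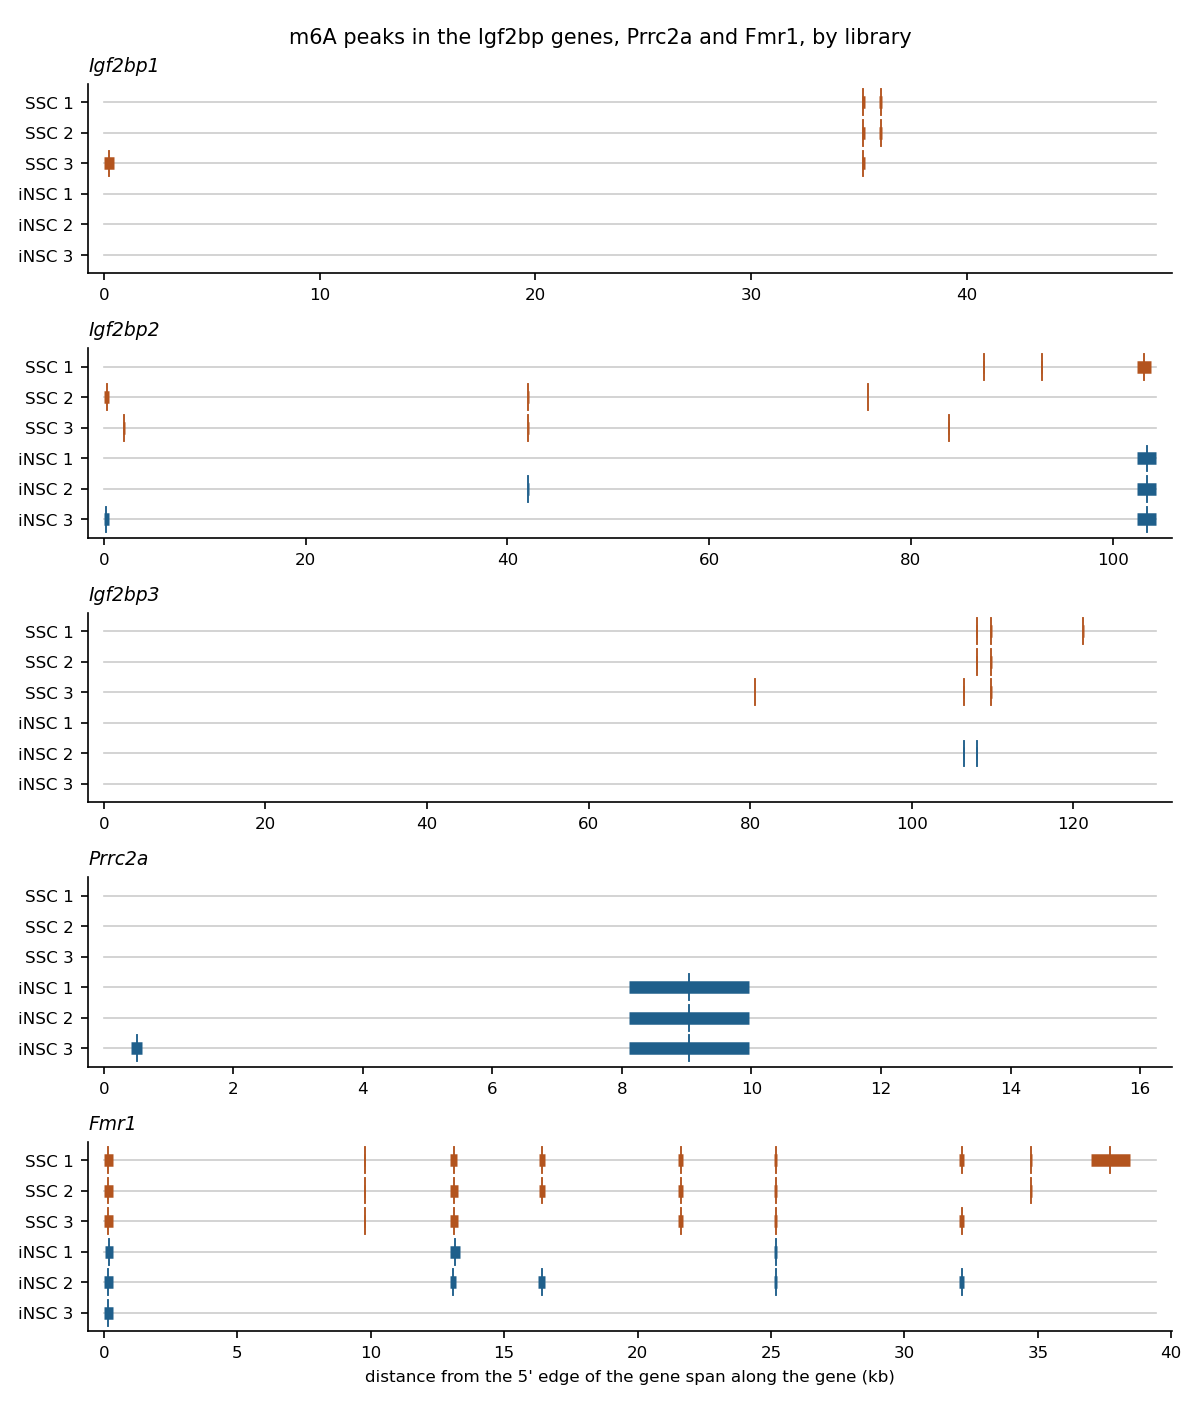
Positions of m6A peaks along Igf2bp1, Igf2bp2, Igf2bp3, Prrc2a and Fmr1, in kb from the 5′ edge of the gene span; each row is a library, bars are peaks to scale and thin vertical lines mark peak centres. Igf2bp1 is empty in the iNSC rows, Prrc2a is empty in the SSC rows, and Fmr1 has 6 to 9 peaks in the SSC rows.

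Prrc2a carried peaks in iNSCs alone. It lies at chr17:35149076-35165321 on the minus strand and had 0, 0 and 0 peaks in SSCs and 1, 1 and 2 in iNSCs (exact permutation p = 0.1, adjusted p = 0.483, n = 3). They covered 1842, 1842 and 2005 bases, 11.3% to 12.3% of the gene. The region chr17:35155366-35157207 had the same 1842 bases in all iNSC lists, at percentiles 81.2, 73.3 and 91.8, the last at the cap. The peak over the start, 163 bases, was in iNSC library 3 alone at percentile 60.4. The iNSC-only call was kept in the better-scoring 50% of each list, at equal list length and with peaks of at least 100 bases. Leaving out single libraries or asking for 2 of 3 cannot undo such a call, so those settings say nothing more about it. Its paralogs went other ways, with 4, 7 and 6 against 2, 3 and 5 peaks for Prrc2b and 15, 11 and 6 against 9, 14 and 12 for Prrc2c, both overlapping.

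Fmr1 carried more peaks in SSCs, and its best-ranked peak stood higher there. It lies at chrX:68678536-68717963 on the plus strand and had 9, 7 and 6 peaks in SSCs and 3, 5 and 1 in iNSCs, 2.44-fold more in SSCs with no overlap (7.33 ± 1.53 against 3 ± 2; SD, n = 3; exact permutation p = 0.1, adjusted p = 0.483). The covered bases, 2937, 1295 and 1146 in SSCs and 763, 1148 and 327 in iNSCs, overlapped (exact permutation p = 0.2, n = 3). At equal list length the peak numbers were 7, 6 and 4 against 3, 5 and 1, which overlap. In the better-scoring 50% they were 7, 4 and 4 against 1, 1 and 1, which do not.

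At the start of Fmr1 the region chrX:68678541-68678867 was in all 6 lists, 327 bases wide except for 289 in iNSC library 1. It stood at percentiles 90.7, 96.1 and 97.6 in SSCs and 69.5, 62.3 and 68.8 in iNSCs, well apart. Over the whole gene the best percentile was 95.3 ± 2.72 in SSCs and 66.9 ± 3.99 in iNSCs (SD, n = 3; exact permutation p = 0.1, adjusted p = 0.199). For the start region the scores were 1306 in SSC library 1, at the cap in SSC libraries 2 and 3, and 830 to 1070 in iNSCs, and the part of the cap was not tested.

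Inside Fmr1, 2 regions were SSC-only. That of 171 bases, chrX:68700060-68700230, stood at percentiles 81.2, 77.7 and 85.7, and that at chrX:68688282-68688334 was 33, 53 and 51 bases wide at percentiles 41.4, 34.7 and 20.1. The region chrX:68703663-68703772 of 110 bases was shared, at percentiles 92.3, 88.0 and 92.3 in SSCs and 27.3 and 14.2 in iNSC libraries 1 and 2. Another shared region, chrX:68691501-68691864, stood at 76.2, 38.5 and 68.1 in SSCs and at 34.6 and 30.2 in iNSC libraries 1 and 2. That at chrX:68694815-68695085 ranked lower in SSC libraries 1 and 2, at 3.30 and 5.04, than in iNSC library 2, at 15.4. At chrX:68710584-68710779 the ranks overlapped, with 62.8 and 19.3 in SSC libraries 1 and 3 and 49.8 in iNSC library 2. A peak of 1469 bases toward the 3′ end was in SSC library 1 alone. Fxr1, a paralog of Fmr1, had 9, 7 and 5 peaks in SSCs and 3, 5 and 1 in iNSCs, which overlap.

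Over the 10 genes the peaks formed 48 regions, of which 4 were SSC-only, beside 5.6% of 47316 regions of all genes, and 3 were iNSC-only, beside 3.38%. The 4 were in Fmr1 (2 regions), Igf2bp1 and Igf2bp3, and the 3 in Prrc2a, Ythdf1 and Ythdf2. In all 6 lists stood 8 regions, 5 of them in Ythdc1 and 1 each in Ythdf1, Ythdf2 and Fmr1, beside 10.1% of the regions of all genes. Edges were identical in 22 of the 33 regions found in at least 2 lists, and in 50.2% of such regions over all genes. With lists of equal length only the 171-base Fmr1 region remained SSC-only, and the iNSC-only regions were those of Prrc2a and Ythdf2 and the start region of Ythdf1 in place of its 3′ region.

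**Figure D4:**
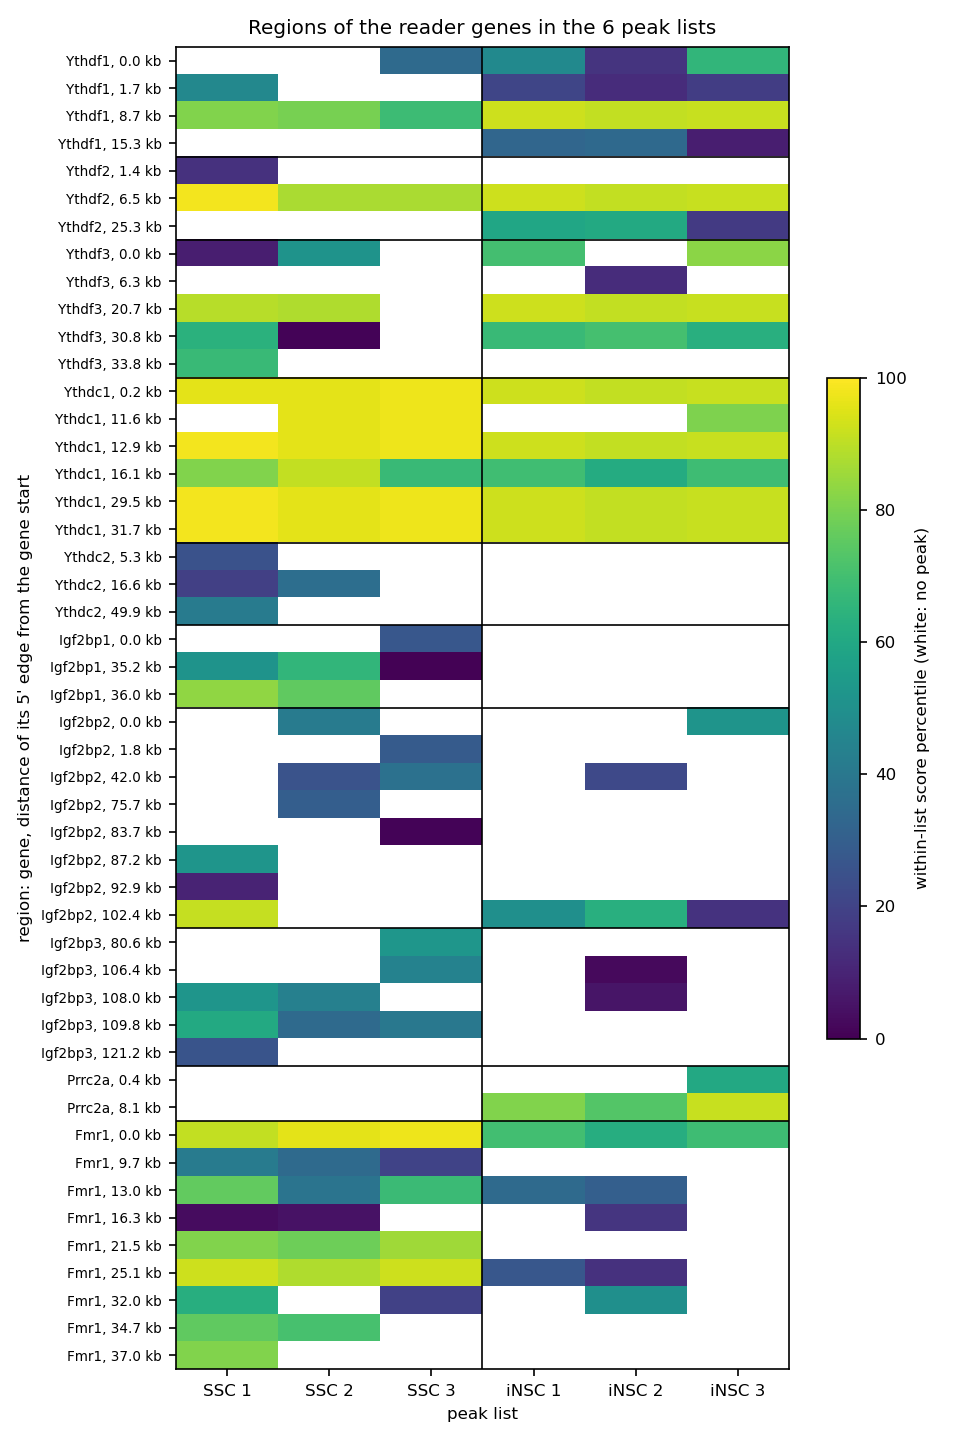
Within-list score percentile (colour, 0 to 100) of each region of the reader genes in each peak list, white where the list has no peak; rows give the gene and the distance of the region's 5′ edge from the gene start in kb. The Ythdc1 rows are filled in nearly every list, and the 1-list rows of Igf2bp2 are mostly white.

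Position was read from peak edges, and a peak that began in the first 500 bases was not counted at the end. By position, 14 of 63 reader peaks in iNSCs and 6 of 82 in SSCs reached into the last 2000 bases of the gene. Per library this was 22.4% ± 3.43 in iNSCs and 6.77% ± 4.64 in SSCs, where all peaks had 25.6% ± 1.55 and 18.0% ± 1.56 (SD, n = 3), so that the readers' SSC share was below that of the lists. Ythdf1 and Ythdf2 had such a peak in all iNSC lists and in no SSC list, beside 6.31% of the 8162 genes with a peak there in any list. No reader had the reverse, which 4.86% of those genes had. Igf2bp2 had one in 3 iNSC lists and 1 SSC list, Ythdc1 in all 6, Ythdf3 in SSC library 1 and iNSC libraries 1 and 2, and Fmr1 in SSC library 1 alone. In Ythdf3 the SSC library 1 peak was a separate one of 98 bases at the gene's end. The Ythdf3 region counted in iNSC libraries 1 and 2 ended 2005 bases before the gene's end in iNSC library 3, just outside the limit. The limits of 500 and 2000 bases were chosen after earlier results were seen.

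The enzymes that write and erase m6A were compared as a list of 15 genes, of which 13 had a peak. Mettl14, the binding partner of the catalytic METTL3, had 8, 7 and 7 peaks in SSCs and 5, 5 and 4 in iNSCs, and Mettl16, a separate methyltransferase, had 3, 4 and 2 against 0, 0 and 0. These 2 of 13 had more in every SSC list and none had more in every iNSC list, near the shares of all genes, 16.5% and 4.22%, and the list's median difference was 0. Of 12 reader paralogs and other m6A-binding proteins all had a peak, none was separated either way, and the median was -0.5.

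Of 15 partners and effectors of the readers, 13 had a peak and 3 of these had more in every SSC list, beside 16.5% of all genes, with a median of -1. Besides Meioc and Rbm46 this was Xrn1, an exonuclease that degrades decapped mRNA, with 13, 6 and 5 peaks in SSCs and 0, 0 and 1 in iNSCs. The number in every iNSC list was higher for none of them. Whether the readers differ from these lists was not tested.

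The genes whose covered bases were nearest to those of Ythdf1 were sought among 12788 genes, by the mean absolute difference of log2(bases + 1) over the 6 lists. E2f7 was nearest at 0.0771, with 1596, 1459 and 1550 bases in SSCs and 2397, 2402 and 2268 in iNSCs. Jrkl followed at 0.0813 and Wdr20 at 0.102. Being chosen for likeness over these 6 lists, they give no separate support to the Ythdf1 difference.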

How the data were processed

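Peak lists of 6 m6A immunoprecipitation libraries were used, 1 per library, each with a score per peak deposited by the authors without a stated unit. Fragments were about 200 nt, per the labels' protocols. Build mm9 and the tools HISAT2 2.0.4 and cutadapt 1.9.3 appear in the submitters' processing notes. Which caller and threshold produced the peaks is not given in the sources used here, though peak names carry a MACS prefix. The series title says MeDIP, whereas the protocols describe RNA immunoprecipitation, and were followed. Peak edges fell on GRCm38.p6 gene edges for 4.90% to 12.0% of peaks, and for at most 0.0187% after a shift of 10000 bases, so coordinates are given on GRCm38, 1-based.

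Peaks were placed in the RefSeq spans of 21900 protein-coding genes by at least 1 base, and by strand where spans overlap: 112965 lay in 1 gene, strand decided for 2859, 957 could not be placed and 1294 were outside. Strand came from the RefSeq promoter table for 7 readers and from their peaks for 3. All 145 reader peaks lay on the gene's strand, which for the 3 readers with strand read from peaks follows largely from that choice. Promoter entries matched 7 of the 10 readers. Scores were ranked within lists only. Group means were compared by exact two-sided permutation tests, adjusted (Benjamini-Hochberg) over all genes with a peak, and percentiles over the 3967 genes with a peak in all lists. The named genes are the 10 readers, up to 4 genes per other list whose peak numbers do not overlap, those with the largest differences, and the 3 genes nearest to Ythdf1. Fxr1, Prrc2b, Prrc2c, Sox2, Etv5 and Gfra1 were named outside that rule after their values were seen. GGAC and the width of 1500 bases were chosen then too. Alternatives were the better-scoring 50% of each list, equal list length, every overlap counted, a width of at least 100 bases, entries within 100 bases joined, an overlap of 50%, 2 of 3 libraries, a replicate block and leaving out each library. The members and lists were chosen with earlier results of these data known. The scripts, in Python 3.11.15 with numpy 2.4.6, pandas 2.3.3 and matplotlib 3.10.9, were tested on simulated data.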

Additional observations from a re-analysis of the deposited data

How the results depend on the processing

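The difference in reader genes with a peak per library, SSC minus iNSC, was 1. It became -0.333 in the better-scoring 50% of each list, 0.333 at equal list length and 0.667 to 1.67 without single libraries. The number of SSC-only reader genes, 1, became 0 in the better-scoring 50% and 2 when 2 of 3 libraries sufficed, with a range of 1 to 2 without single libraries: Ythdc2 joined without SSC replicate 3 and Igf2bp3 without iNSC replicate 2. The 4 SSC-only regions became 1 at equal length and ranged from 4 to 7 without single libraries, with 7 without SSC replicate 3. The 3 iNSC-only regions ranged from 3 to 5, with 5 without SSC replicate 1. The Igf2bp2 difference in peak number, iNSC minus SSC, was -1.33 and turned to 0.333 at equal length. In the better-scoring 50% the Ythdf1 difference fell from 2.33 to 0.333 peaks and from 695 to 88.7 bases. These changes come with shorter lists, fewer libraries or a looser call; their cause was not tested further. Of the per-gene values, 111 of 120 for peak number, 73 of 80 for covered bases and 31 of 34 for percentile moved by less than the spread. For peak number these include the replicate block, every overlap counted and entries within 100 bases joined, which left every reader's value as it was. Some values within the spread changed sign. Without SSC replicate 3 the Ythdf3 difference in peak number, iNSC minus SSC, went from 0.667 to -0.5. The Ythdf2 difference in best percentile went from 0.728 to -1.05. Same-numbered libraries did not deviate together (correlations 0.0107, -0.0181 and 0.0313 over 13197 genes), so numbers were read as names. With 3 libraries in each group the replicate block cannot change a difference of means, and its smallest possible exact sign-flip p is 0.25. No group had over 3 libraries, so outlying libraries were not tested. Without depth or input, a missing peak has no detection limit.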
